A study of Mus musculus with 7 samples.

Results

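Glycolysis turns glucose into pyruvate and lactate, and 10 enzymes of the pathway, taken by gene symbol, were followed here in sorted mouse microglia: Hk2, Gpi1, Pfkl, Aldoa, Tpi1, Gapdh, Pgk1, Pgam1, Pkm and Ldha. All 10 symbols were found among the 23420 genes of the deposited count table, and all 10 passed the filter on low counts that left 11991 genes for testing. RNA was sequenced from cortical microglia of mice at postnatal day 30, 1 mouse per library. The 4 cKO libraries came from Tmem119creErt2+ Srgap2f/f mice, in which a tamoxifen-inducible recombinase under control of the microglial gene Tmem119 deletes the floxed Srgap2 alleles. The 3 WT libraries came from Srgap2f/f mice without the recombinase. Both groups carried floxed alleles and both were gavaged with tamoxifen at 75 ug per g of body weight on postnatal days 8 and 10. Only the cKO mice carried the recombinase, so its effects and those of the deletion cannot be told apart in this design. The comparison asks how microglia targeted for deletion of Srgap2 compare with those of WT littermates at steady state. Srgap2 encodes a regulator of membrane shape and the actin cytoskeleton.

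In the cytosol, glycolysis proceeds from glucose that hexokinase has trapped by phosphorylation, through an early stage that spends ATP and a later stage that yields ATP and NADH. Lactate dehydrogenase then converts pyruvate to lactate and restores the NAD+ that the pathway uses. Microglia are known to draw on both glycolysis and mitochondrial respiration, and macrophages of many tissues raise glycolysis when stimulated. Many genes of the pathway are targets of HIF-1, the transcription factor of the hypoxia response, which binds the core letters ACGTG or GCGTG; Ldha and Pgk1 are among its classic targets.

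Promoter windows of the 10 enzymes, from 250 bases before to 50 bases after each annotated start, were read from RefSeq on build GRCm38.p6. That is an earlier build than the GRCm39 named in the submitters' processing notes, and its coordinates apply to these windows only. The windows of Ldha and Pgk1 are shown because both genes are textbook HIF-1 targets, and that of Hk2 because Hk2 was the enzyme whose level ran opposite to the others. Capitals mark ACGTG or GCGTG on either strand, so that CACGT in capitals is a match on the opposite strand and CACGTG a match on both strands. The windows lie at chr7:46845554-46845853 on the plus strand for Ldha, at chrX:106186850-106187149 on the plus strand for Pgk1 and at chr6:82774405-82774704 on the minus strand for Hk2.
Ldha: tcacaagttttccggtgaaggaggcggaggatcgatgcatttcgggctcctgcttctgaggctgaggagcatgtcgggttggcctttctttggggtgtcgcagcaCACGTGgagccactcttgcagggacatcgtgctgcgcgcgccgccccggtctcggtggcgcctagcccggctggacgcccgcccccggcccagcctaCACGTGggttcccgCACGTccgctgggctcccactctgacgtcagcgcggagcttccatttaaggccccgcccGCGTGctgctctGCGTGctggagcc
Pgk1: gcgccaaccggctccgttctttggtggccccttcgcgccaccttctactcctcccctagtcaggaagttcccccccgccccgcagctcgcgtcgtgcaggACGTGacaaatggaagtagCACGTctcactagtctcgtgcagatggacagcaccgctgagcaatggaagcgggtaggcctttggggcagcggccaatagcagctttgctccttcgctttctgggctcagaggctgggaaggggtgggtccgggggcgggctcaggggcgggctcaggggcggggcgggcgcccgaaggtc
Hk2: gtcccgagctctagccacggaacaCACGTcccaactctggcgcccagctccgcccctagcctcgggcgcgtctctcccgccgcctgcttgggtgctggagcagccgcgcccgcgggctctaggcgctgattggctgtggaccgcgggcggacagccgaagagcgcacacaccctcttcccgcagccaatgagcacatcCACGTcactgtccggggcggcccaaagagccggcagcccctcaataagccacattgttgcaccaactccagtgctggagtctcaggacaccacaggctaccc

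Searched on both strands, ACGTG lay in a window of 7 of the 10 enzymes, against 21.8% of all 27025 genes with a window. On the given strand alone it lay in a window of 3 of the 10, against 15.3% of all genes. The enzymes without it on either strand were Gpi1, Pfkl and Tpi1. GCGTG lay in a window of 4 of the 10 enzymes, against 35.2% of all genes, and CACGTG, which contains ACGTG on each strand, lay only in that of Ldha among the 10, against 8.09% of all genes. GGGCGG, the core letters that the factor Sp1 binds, lay in a window of 9 of the 10 enzymes, against 38.2% of all genes, and TATAAA in none of the 10, against 15.7% of all genes. The 10 enzymes had 14 windows between them, and a gene counted once if any of its windows held the letters. The share of all genes covers every gene with a window, not only the genes tested. It was not matched to the enzymes for GC content or for windows per gene, so these counts are a description and not a test.

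Total counts ranged from 27025270 to 35213711 in cKO libraries and from 27016173 to 35707304 in WT libraries. Values of single libraries are given in the order of their replicate numbers. Srgap2, the targeted gene, was at 344, 257, 275 and 212 CPM in the 4 cKO libraries, against 979, 691 and 693 CPM in the 3 WT libraries (log2 fold change −1.53, SE 0.17; two-sided exact permutation p = 0.029, the smallest that 35 divisions of the libraries allow). CPM is the count of a gene relative to its TMM-scaled library size. The summed level of 12 microglial markers ranged from 56221 to 66666 CPM in cKO and from 65706 to 69263 CPM in WT, and 1 of the 12, Tmem119, fell (log2 fold change −0.82, SE 0.15, adjusted p = 0.0459 by edgeR's quasi-likelihood test with Benjamini-Hochberg adjustment over all genes tested). Tmem119 is also the locus of the driver. Markers of neurons summed to between 2.02 and 4.67 CPM in cKO and between 2.13 and 2.79 CPM in WT, and those of monocytes and neutrophils to between 8.15 and 10.1 CPM in cKO and between 5.88 and 10.5 CPM in WT, with Ltf, Elane, Retnlg and Lcn2 at 0 in every library. Sums were larger for lymphocyte markers, at 35.5 to 61.4 CPM in cKO and 41.6 to 55.3 CPM in WT. Those of endothelial and mural cells were 57.4 to 76.5 CPM in cKO and 72.7 to 80.5 CPM in WT.

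Most of the 10 enzymes were higher in cKO microglia than in WT microglia, by 1.37-fold to 1.67-fold in 8 of them, but no single enzyme passed the threshold across all genes. By edgeR's quasi-likelihood test with Benjamini-Hochberg adjustment, 0 of the 10 had an adjusted p under 0.05, against 0.359% of all genes tested (0.317% higher and 0.0417% lower in cKO); DESeq2 called 4 of the 10, against 4.37% of all genes tested, and limma-voom 0, against 0.4%. At an unadjusted p under 0.05, 8 of the 10 were higher in cKO, where 9.65% of all genes tested were, and 0 of the 10 were lower, where 6.87% were. In 6 of the 10, every cKO library lay above every WT library, as in 8.86% of all genes tested, and in 0 of the 10 did every cKO library lie below every WT library, as in 7.2% of all genes tested. The median log2 fold change of the 10 enzymes was 0.55, against −0.01 for all genes tested. The enzymes are not independent of one another, and these counts are a description of the group and not a test of it. In RNA from bulk cells, more RNA per cell and a larger share of cells that hold it cannot be told apart.

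**Figure D1:**
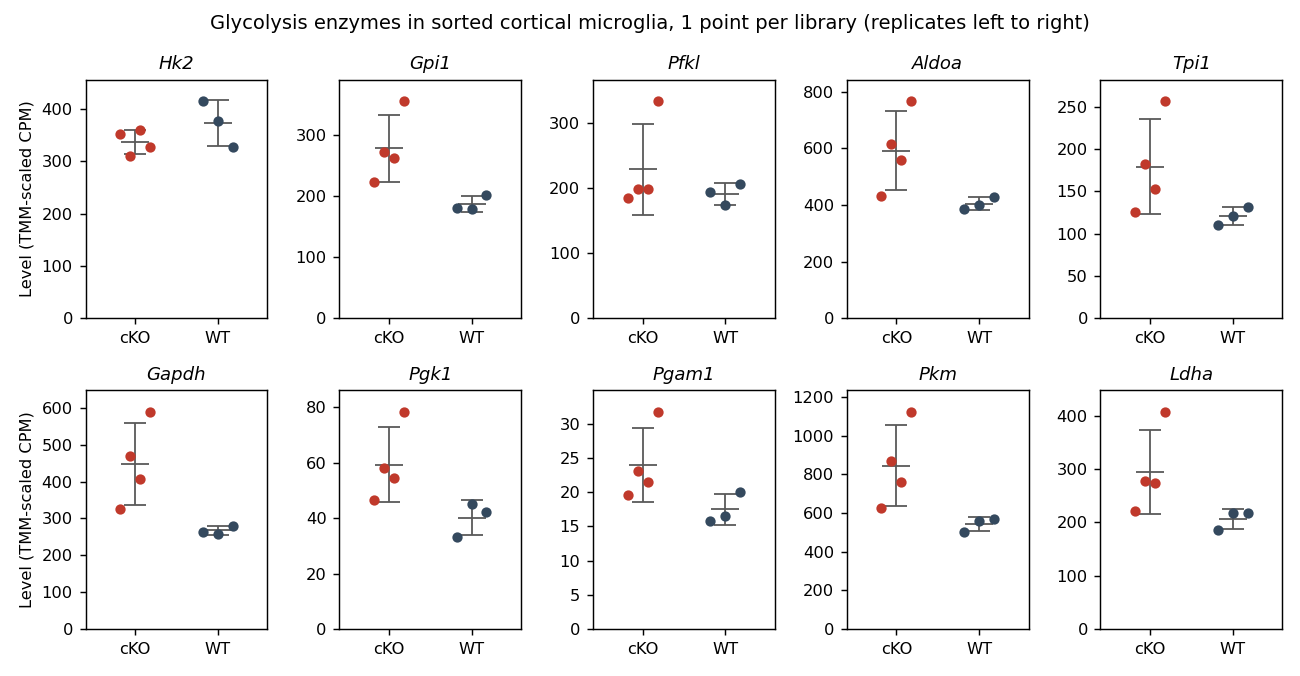
Level of each enzyme in TMM-scaled CPM, 1 point per library, with the 4 cKO libraries on the left and the 3 WT libraries on the right of each panel; the horizontal line is the mean and the bars are 1 SD. In Gpi1, Aldoa, Gapdh, Pgk1, Pkm and Ldha all 4 cKO points lie above all 3 WT points, while the groups overlap in Hk2, Pfkl, Tpi1 and Pgam1.

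At the pathway's entry the mean of Hk2 was lower in cKO and those of Hk1 and Hk3, hexokinases of the same step, were higher. By edgeR's quasi-likelihood test neither Hk1 (log2 fold change 0.21, adjusted p = 0.388) nor Hk3 (0.08, adjusted p = 0.785) passed the threshold. The groups overlapped in Hk3. Hk2, hexokinase 2, phosphorylates glucose to glucose-6-phosphate and can bind to mitochondria. It stood at 351, 310.5, 359 and 327 CPM in the 4 cKO libraries, against 414, 377 and 326 CPM in the 3 WT libraries. The groups overlapped, and Hk2 was the 1 enzyme of the 10 with a lower mean in cKO, at 337 ± 22.3 CPM (SD, n = 4) against 373 ± 44.1 CPM in WT (SD, n = 3). The log2 fold change was −0.15 (95% interval −0.39 to 0.10; adjusted p = 0.564 by edgeR's quasi-likelihood test), so a difference of either sign lies within the interval. The lower mean leaned on WT replicate 1, without which the log2 fold change was −0.06.

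Gpi1, glucose-6-phosphate isomerase, converts glucose-6-phosphate to fructose-6-phosphate. It stood at 223, 271, 261 and 354 CPM in the 4 cKO libraries, against 179, 179 and 202 CPM in the 3 WT libraries. Each cKO library lay above each WT library, and the mean was 277 ± 55.4 CPM in cKO (SD, n = 4) and 187 ± 12.98 CPM in WT (SD, n = 3). The log2 fold change was 0.57 (SE 0.15, 95% interval 0.25 to 0.89; unadjusted p = 0.0024, adjusted p = 0.120 by edgeR's quasi-likelihood test). Gpi1 thus lay 1.49-fold higher in cKO without passing the threshold.

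Pfkl, the liver-type subunit of phosphofructokinase, catalyses the committed step, the phosphorylation of fructose-6-phosphate. Its level was 184, 198, 199 and 332 CPM in the 4 cKO libraries, against 193, 173 and 206 CPM in the 3 WT libraries. Only cKO replicate 4 lay outside the WT range on the high side, and the other cKO libraries lay within that range. The mean was 228 ± 69.6 CPM in cKO (SD, n = 4) and 191 ± 16.7 CPM in WT (SD, n = 3), with a log2 fold change of 0.26 (95% interval −0.15 to 0.67; adjusted p = 0.538 by edgeR's quasi-likelihood test). Without cKO replicate 4 the log2 fold change was 0.02, and the 3 other cKO libraries averaged close to WT.

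The next 2 enzymes split fructose-1,6-bisphosphate and interconvert the products. Aldoa, aldolase A, was at 429.9, 614, 558 and 765 CPM in the 4 cKO libraries, against 384, 401 and 428 CPM in the 3 WT libraries. The groups did not overlap, but the lowest cKO library and the highest WT library were almost equal. Aldoa's mean was 592 ± 139 CPM in cKO (SD, n = 4) and 405 ± 22.2 CPM in WT (SD, n = 3), with a log2 fold change of 0.55 (SE 0.17; unadjusted p = 0.0066, adjusted p = 0.150 by edgeR's quasi-likelihood test). Tpi1, triosephosphate isomerase, was at 125, 183, 152 and 256 CPM in the 4 cKO libraries, against 110, 121 and 131 CPM in the 3 WT libraries. Its groups overlapped, since cKO replicate 1 lay below WT replicate 3, and its log2 fold change was 0.57 (SE 0.20, adjusted p = 0.191 by the same test).

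Gapdh, glyceraldehyde-3-phosphate dehydrogenase, oxidises glyceraldehyde-3-phosphate with the formation of NADH, and it had the largest fold change of the 10. Its level was 325, 469, 408 and 589 CPM in the 4 cKO libraries, against 264, 257 and 281 CPM in the 3 WT libraries. Every cKO library lay above every WT library, and the WT libraries lay close together. The mean was 448 ± 111 CPM in cKO (SD, n = 4) and 267 ± 11.9 CPM in WT (SD, n = 3), a 1.67-fold difference. The log2 fold change was 0.74 (SE 0.17, 95% interval 0.37 to 1.12), with an unadjusted p of 0.0011 and an adjusted p = 0.0963 by edgeR's quasi-likelihood test. Gapdh ranked 131st by p among all genes tested.

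Pgk1, phosphoglycerate kinase 1, makes the pathway's earlier ATP. Its level was 46.5, 58.0, 54.6 and 78.3 CPM in the 4 cKO libraries, against 33.3, 45.1 and 42.3 CPM in the 3 WT libraries, with no overlap and a log2 fold change of 0.56 (SE 0.18; unadjusted p = 0.0080, adjusted p = 0.159 by edgeR's quasi-likelihood test). Pgam1, phosphoglycerate mutase 1, shifts the phosphate group of 3-phosphoglycerate and was the lowest of the 10. It was at 19.6, 23.1, 21.4 and 31.7 CPM in the 4 cKO libraries, against 15.8, 16.6 and 20.1 CPM in the 3 WT libraries. Here cKO replicate 1 lay just below WT replicate 3, and the log2 fold change of Pgam1, 0.45, had an SE of 0.18 and an adjusted p = 0.224 by the same test.

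Pkm, pyruvate kinase, makes pyruvate and the later ATP, and its gene yields the splice forms M1 and M2, which a count per gene does not separate. Its level was 626, 866, 762 and 1121 CPM in the 4 cKO libraries, against 499.5, 559 and 567 CPM in the 3 WT libraries. The groups did not overlap, and the mean was 844 ± 209 CPM in cKO (SD, n = 4) and 542 ± 36.7 CPM in WT (SD, n = 3). The log2 fold change was 0.64 (SE 0.17, 95% interval 0.26 to 1.02; unadjusted p = 0.0031, adjusted p = 0.128 by edgeR's quasi-likelihood test), the next in size after Gapdh.

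Ldha, lactate dehydrogenase A, reduces pyruvate to lactate. It was at 221, 277, 273 and 406 CPM in the 4 cKO libraries, against 185, 218 and 217 CPM in the 3 WT libraries. Each cKO library lay above each WT library, the lowest cKO library by a narrow margin over WT replicate 2. The log2 fold change was 0.51 (SE 0.18; unadjusted p = 0.015, adjusted p = 0.189 by edgeR's quasi-likelihood test). The enzymes that acted on the 3-carbon intermediates, from Tpi1 to Ldha, all had a positive log2 fold change between 0.45 and 0.74.

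**Figure D2:**
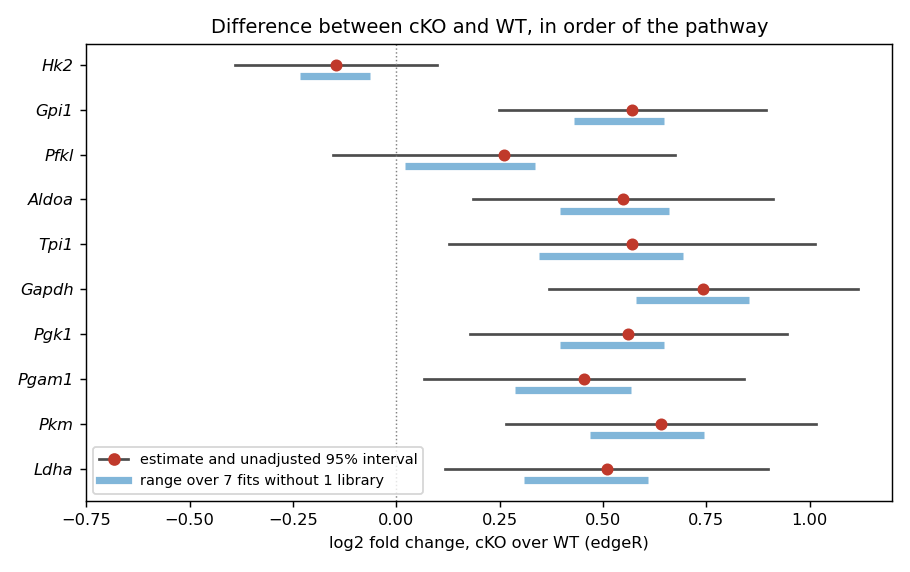
Log2 fold change of each enzyme, cKO over WT, in the order of the pathway from top to bottom; points are the estimates of edgeR, dark lines their unadjusted 95% intervals, and blue bars the range over the 7 fits that each leave out 1 library. The intervals of Hk2 and Pfkl hold 0 and those of the 8 other enzymes do not, while no blue bar crosses 0.

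The levels of most enzymes varied together across libraries. Relative to its WT mean, each enzyme but Hk2 was highest in cKO replicate 4, the highest library for 22.65% of all genes tested. Among the cKO libraries replicate 1 was the lowest for each of these 9 enzymes, and among the WT libraries the order varied. The summed level of the 10 was 2552, 3269, 3048 and 4261 CPM in the 4 cKO libraries, against 2280, 2347 and 2420 CPM in the 3 WT libraries. As a share of all counts the 10 enzymes took 0.273, 0.318, 0.306 and 0.395% in the 4 cKO libraries, against 0.231, 0.239 and 0.243% in the 3 WT libraries, and the groups did not overlap. Over the 7 libraries, which share these groups and these depths, the Pearson r of an enzyme with the mean of the 9 others was between 0.94 and 0.99 for 8 enzymes, 0.83 for Pfkl and −0.67 for Hk2.

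**Figure D3:**
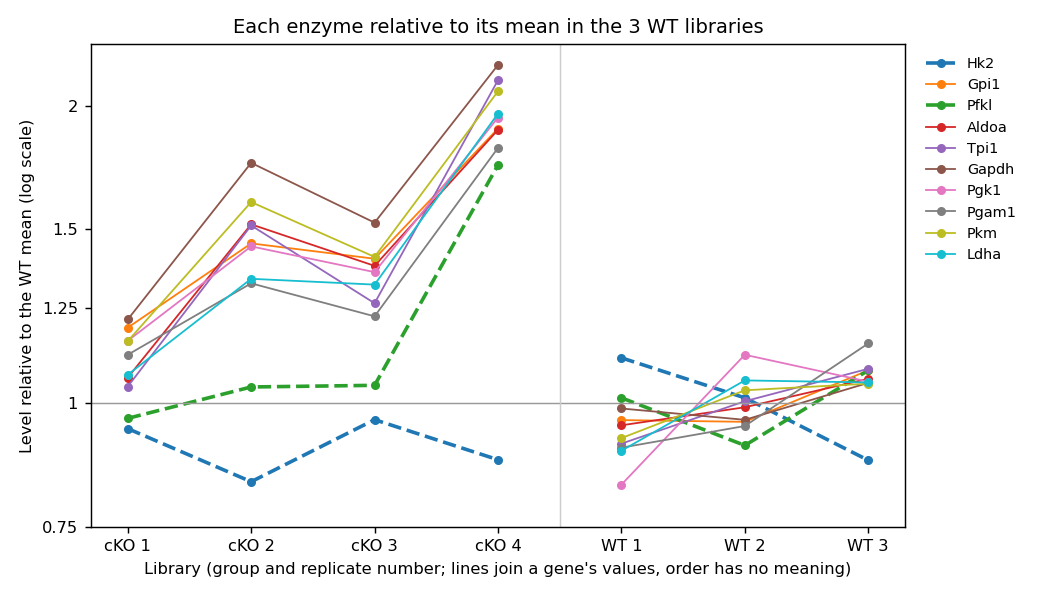
Level of each enzyme divided by its mean over the 3 WT libraries, on a log axis, for the 4 cKO libraries on the left and the 3 WT libraries on the right; lines join the values of 1 gene and the order of libraries has no meaning. In cKO replicate 4 the 9 enzymes other than Hk2 are at their highest, and Hk2 stays below its WT mean in all 4 cKO libraries.

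Other features of the libraries ran with or against this order. Across genes within a library, which are not independent, the rank correlation of a gene's deviation from its mean level with its GC content was −0.52, 0.17, −0.42 and 0.44 in cKO replicates 1 to 4, against −0.02, 0.07 and 0.24 in WT replicates 1 to 3. This put the libraries of each group in the same order as the summed level of the enzymes. The rank correlation with transcript length was 0.34, −0.18, 0.05 and −0.40 in the 4 cKO libraries, against 0.41, −0.08 and −0.25 in the 3 WT libraries, the reverse order in each group. Xist, the RNA that coats the inactive X, stood at 0.31, 69.4, 0 and 144 CPM in the 4 cKO libraries, against 0.66, 243 and 127 CPM in the 3 WT libraries, and the cKO libraries with it had the highest summed level. The enzymes' transcripts held from 49.7% to 57.7% GC, against a median of 50.2% over the genes tested. They were 1420 to 5513 bases long, against a median of 3069 bases, and only Hk2 (5513 bases) and Pfkl (3730 bases) were longer than that median. When per-library offsets for GC content and length were fitted, the median log2 fold change of the 10 was 0.55, and 5 of them passed the threshold, where 6.12% of all genes tested did. With Xist as a covariate the median was 0.63, and 8 of the 10 passed, all but Hk2 and Pfkl, where 8.81% of all genes tested did. Markers of the oligodendrocyte lineage summed to 226, 314, 254 and 332 CPM in the 4 cKO libraries, against 239.8, 227 and 257 CPM in the 3 WT libraries, mostly from Cnp and Mbp. By edgeR's test 0 of the 7 tested passed and 1 was higher at an unadjusted p under 0.05, where 9.65% of all genes tested were higher and 6.87% lower. Astrocyte markers summed to 138, 86.5, 95.6 and 83.0 CPM in the 4 cKO libraries, against 132, 131 and 136 CPM in the 3 WT libraries, and border-associated macrophage markers to 133, 78.8, 114 and 67.2 CPM in the 4 cKO libraries, against 73.3, 111 and 87.8 CPM in the 3 WT libraries. Both sums ran in the reverse of the enzymes' order among the cKO libraries. In these lists 0 of 7 astrocyte markers and 0 of 8 border-associated macrophage markers passed; at an unadjusted p under 0.05 1 astrocyte marker was lower and 1 border-associated macrophage marker was higher. Of 24 genes induced by cell dissociation 0 passed and 2 were higher and 4 lower at an unadjusted p under 0.05, with sums between 1386 and 1695 CPM in cKO and between 1508 and 1771 CPM in WT. Erythroid markers summed to 20.6 CPM in cKO replicate 4, between 1.42 and 3.86 CPM in the other cKO libraries and between 0.475 and 6.56 CPM in WT, with Hba-a1 and Hba-a2 at 0. How reads shared between genes were counted is not given, so a count of 0 need not mean that such RNA was absent. The part of these oligodendrocyte, astrocyte, macrophage, dissociation and erythroid genes in the result was not tested.

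Leaving out cKO replicate 4 lowered the size of the difference and kept its direction. The median log2 fold change of the 10 was then 0.37, that of Gapdh 0.58 and that of Pkm 0.47, and the number of enzymes past the threshold remained 0. Without cKO replicate 1, the cKO library closest to WT, 4 enzymes passed, Gpi1, Aldoa, Gapdh and Pkm, where 1.19% of all genes tested did. The mice carry numbers in 2 runs, and the labels do not say what a run stands for. Among the mice of one run, cKO replicates 1 and 2 and WT replicate 1, the difference in mean log2 CPM was 0.56 for Gapdh, 0.56 for Pkm, −0.02 for Pfkl and −0.33 for Hk2. Among those of the other run, cKO replicates 3 and 4 and WT replicates 2 and 3, it was 0.87 for Gapdh, 0.72 for Pkm, 0.45 for Pfkl and −0.04 for Hk2. The 8 enzymes other than Hk2 and Pfkl had positive differences in both runs, between 0.42 and 0.87.

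Levels were compared between enzymes as CPM per kb of transcript. Aldoa was the most abundant, at 382 ± 89.8 CPM per kb in cKO (SD, n = 4) and 261 ± 14.3 CPM per kb in WT (SD, n = 3). Pkm followed at 347 ± 86.1 CPM per kb in cKO and 223 ± 15.1 CPM per kb in WT, and Gapdh at 315 ± 78.1 CPM per kb in cKO and 188 ± 8.41 CPM per kb in WT. Ldha, Tpi1, Gpi1, Hk2, Pfkl, Pgk1 and Pgam1 came next in this order of means over the 7 libraries, and Pgam1 was the lowest at 13.5 ± 3.03 CPM per kb in cKO and 9.86 ± 1.30 CPM per kb in WT. Each enzyme lay above the next in all 7 libraries except at 2 places: Gpi1 lay above Hk2 in 4 cKO libraries and 1 WT library, and Hk2 above Pfkl in 6 of the 7 libraries. In cKO the means of Hk2, 61.1 ± 4.04 CPM per kb, and Pfkl, 61.2 ± 18.7 CPM per kb, were nearly equal. Pfkl was at 89.1 CPM per kb in cKO replicate 4 and at 49.4, 53.2 and 53.3 CPM per kb in replicates 1 to 3. In WT Hk2 was at 67.6 ± 8.01 CPM per kb and Pfkl at 51.1 ± 4.47 CPM per kb. These levels carry the uncertainty of the counting: in GENCODE M21 transcripts, 80.3% of all 75-base windows of Gapdh also occur in transcripts of other genes, 118 genes in all, as do 67.5% of those of Pgk1, 40.6% of those of Pgam1 and 19.6% of those of Pkm, against 0% for Hk2 and Pfkl, and how reads shared by such copies were counted is not given in the sources used here.

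Isoenzymes of the same step were set against each other within a library, as ratios of counts, which library scaling cannot move. The ratios are not corrected for transcript length and are compared between groups only. Hk1, the hexokinase of most tissues, was at 71.6, 80.7, 71.1 and 90.6 CPM in the 4 cKO libraries, against 68.8, 66.2 and 68.5 CPM in the 3 WT libraries, with no overlap. The log2 ratio of Hk2 to Hk1 was 2.11 ± 0.24 in cKO (SD, n = 4) and 2.45 ± 0.18 in WT (SD, n = 3), a difference of −0.34 (two-sided exact permutation p = 0.171, adjusted p = 0.343 over the 6 ratios tested). Hk2 made up 52.9, 46.0, 50.6 and 45.2% of the counts of Hk1, Hk2 and Hk3 in cKO replicates 1 to 4, against 54.2, 53.2 and 51.3% in the 3 WT libraries, so the shares overlapped. Hk3, the third hexokinase, gave a log2 ratio of Hk2 to Hk3 of 0.28 ± 0.21 in cKO and 0.50 ± 0.06 in WT (difference −0.22, exact permutation p = 0.171, adjusted p = 0.343, n = 4 and 3).

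The remaining ratios likewise did not pass. The log2 ratio of Pfkl to Pfkm, the muscle subunit, was 3.38 ± 0.38 in cKO and 3.15 ± 0.16 in WT (exact permutation p = 0.429, adjusted p = 0.514, n = 4 and 3), and the difference of 0.24 was 0.08 without cKO replicate 4. That of Pfkl to Pfkp, the platelet subunit, was 7.02 ± 0.47 in cKO and 7.40 ± 1.04 in WT (exact permutation p = 0.571, adjusted p = 0.571, n = 4 and 3). The difference of −0.38 turned to 0.20 without WT replicate 3 and was −0.81 without WT replicate 2. Pfkp had only 19 to 58 counts in a library and was lowest in WT replicate 3, at 0.53 CPM, so this ratio is imprecise. That of Aldoa to Aldoc, aldolase C, was 6.71 ± 0.19 in cKO and 6.30 ± 0.39 in WT (exact permutation p = 0.143, adjusted p = 0.343, n = 4 and 3). Ldhb, the subunit that favours the reverse reaction of lactate to pyruvate, was the partner of Ldha, and the log2 ratio of Ldha to Ldhb was −1.13 ± 0.23 in cKO and −1.30 ± 0.11 in WT (exact permutation p = 0.314, adjusted p = 0.471, n = 4 and 3). The smallest p that 4 against 3 libraries can give is 0.029 before adjustment. Adjusted over the 6 ratios, even that p would not pass for a single ratio. It could pass only if several ratios reached it together. The adjusted test therefore could not call any ratio on its own, and a p above the threshold does not show that the proportions are alike.

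Other genes of glucose metabolism were described by list. Of 16 enolases and other isoenzymes tested, 0 rose, 0 fell and 16 did not pass by edgeR's quasi-likelihood test, 1 was higher at an unadjusted p under 0.05 (9.65% of all genes tested were), and the median log2 fold change was 0.09. The lowest p-values there were those of Eno3 (0.39, adjusted p = 0.247) and Ldhb (0.34, adjusted p = 0.332). Eno1, the enolase of most tissues, is named after its values were seen. It was at 1.56, 1.73, 1.97 and 2.64 CPM in the 4 cKO libraries, against 1.57, 1.40 and 1.59 CPM in the 3 WT libraries, and 65.4% of its 75-base windows occur in transcripts of other genes. Of 9 glucose and lactate transporters tested 0 passed, 1 was lower at an unadjusted p under 0.05 (6.87% of all genes tested were), and their median was −0.06. Slc2a1, the glucose transporter GLUT1, was at 72.7, 88.4, 79.4 and 88.9 CPM in the 4 cKO libraries, against 110.0, 107 and 117 CPM in the 3 WT libraries. Every cKO library lay below every WT library, opposite in direction to most of the enzymes, with a log2 fold change of −0.44 (SE 0.11, adjusted p = 0.112). Slc2a5, the fructose transporter GLUT5 and a gene typical of microglia, had −0.24 (adjusted p = 0.346).

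The pentose phosphate pathway, which branches off at glucose-6-phosphate, had the highest median of these other lists at 0.36, and 1 of its 11 genes rose, 0 fell and 10 did not pass, while 6 were higher at an unadjusted p under 0.05, where 9.65% of all genes tested were. The gene that rose was Prps2, which makes phosphoribosyl pyrophosphate from the pathway's ribose-5-phosphate. Prps2 was at 98.5, 82.3, 84.2 and 74.1 CPM in the 4 cKO libraries, against 54.3, 48.5 and 56.0 CPM in the 3 WT libraries (log2 fold change 0.68, SE 0.12, adjusted p = 0.0459). Its order among the cKO libraries differed from that of the enzymes, with replicate 1 the highest and replicate 4 the lowest. The call was lost without any 1 of cKO replicates 2 and 3 and WT replicates 1, 2 and 3, each of which left 0 genes of the list past the threshold.

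The counts at an unadjusted p under 0.05 stand beside 9.65% of all genes tested that were higher and 6.87% that were lower. Of 20 regulators of glycolytic flux tested 0 passed by edgeR's test and 6 were higher at an unadjusted p under 0.05, with a median of 0.17. Pgm1, by its name a phosphoglucomutase, had a log2 fold change of 0.44 (adjusted p = 0.133), and Mpc1, a subunit of the mitochondrial pyruvate carrier, 0.47 (adjusted p = 0.146). Of 12 genes of gluconeogenesis and glycogen 0 passed and 3 were higher at an unadjusted p under 0.05, with a median of 0.17. There Ugp2, which makes UDP-glucose, had 0.48 (adjusted p = 0.0963) and Pygl, glycogen phosphorylase, 0.50 (adjusted p = 0.131). Of 20 genes of the hypoxia response and its regulators 0 passed, 6 were higher and 1 was lower at an unadjusted p under 0.05, and the median was 0.08. Hif1an, an inhibitor of HIF-1 alpha, had −0.38 (adjusted p = 0.130), and Bnip3l, a HIF-1 target of mitochondrial turnover, had 0.40 (adjusted p = 0.133). Hif1a, named after its values were seen, was at 82.1, 72.7, 72.5 and 64.1 CPM in the 4 cKO libraries, against 64.3, 72.1 and 72.6 CPM in the 3 WT libraries. It was the lowest of the cKO libraries in cKO replicate 4, where the enzymes were highest. Its log2 fold change was 0.06 (adjusted p = 0.835 by edgeR's quasi-likelihood test). These are RNA levels, and HIF-1 protein and its activity were not measured.

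**Figure D4:**
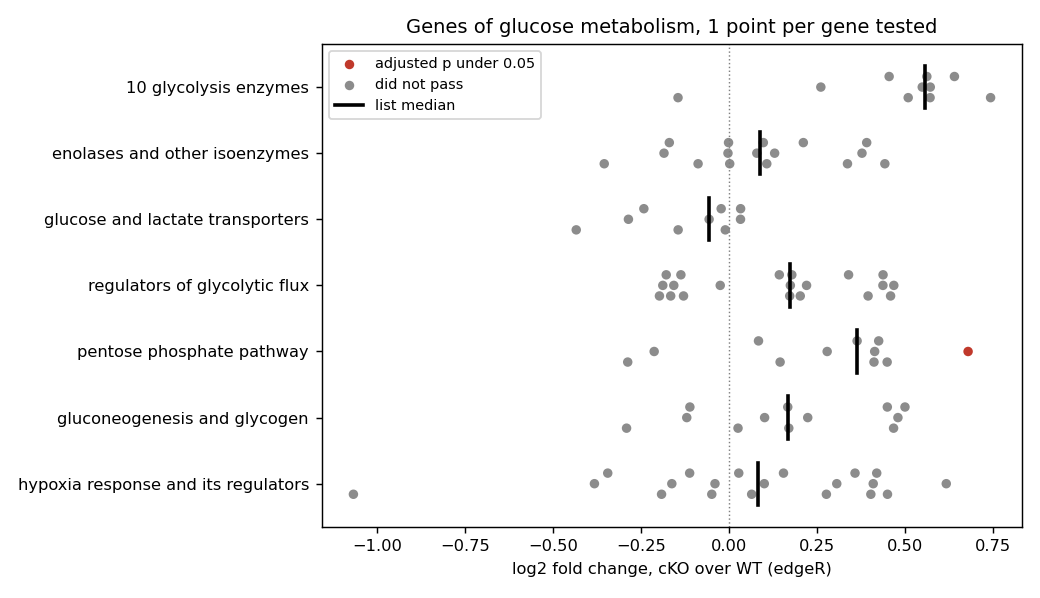
Log2 fold change, cKO over WT, of every tested gene of the 10 enzymes and of the 6 other lists of glucose metabolism, 1 point per gene, with the list median as a vertical bar; red marks an adjusted p under 0.05. The 10 enzymes have the highest median, 0.55, and the only red point is Prps2 in the pentose phosphate list.

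The genes whose log2 CPM over the 7 libraries was most like the mean of the enzymes' standardised log2 CPM were Imp4 (Pearson r = 0.995), Suds3 (0.990), Akt2 (0.989), Wars (0.988) and G6pdx (0.987), out of 8566 candidates whose mean log2 CPM was 3 or more. With so few libraries 484 candidates, or 5.65%, had an r over 0.9. G6pdx, glucose-6-phosphate dehydrogenase, which opens the pentose phosphate pathway, was at 89.6, 106, 108 and 133 CPM in the 4 cKO libraries, against 79.3, 81.4 and 85.9 CPM in the 3 WT libraries. Its groups did not overlap, and its log2 fold change was 0.41 (adjusted p = 0.165 by edgeR's quasi-likelihood test).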

How the data were processed

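The authors deposited 1 table of whole-number counts per gene and library, not normalized. The submitters' processing notes name DRAGEN and GRCm39; annotation, strand setting and counting rule are not given. Per the labels' protocols, CD11b+, CD45low, CX3CR1+ cells were sorted and poly(A) RNA was sequenced. Each library is from a separately numbered mouse, so p-values measure the spread between mice.

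Genes were kept with filterByExpr of edgeR 4.0.16 (R 4.3.3; least count 10, least total 15), scaled with TMM, and cKO was set against WT with the robust quasi-likelihood F test with no covariate, adjusted over all 11991 genes by Benjamini-Hochberg with a threshold of 0.05. SE is the size of the log2 fold change over the square root of F, and 95% intervals are unadjusted. Log2 CPM used a prior count of 2, ratios a pseudocount of 0.5. The procedure was tested on simulated data. The enzymes, lists and tests were chosen with earlier results of these data known. Named were the 10 enzymes, Srgap2, the ratio partners, in each list the genes past the threshold or otherwise the 2 with the smallest p, and the 5 genes most like the enzymes; other genes are marked as named after their values were seen or describe the libraries. Some marker genes are not reported here singly, though they remain in the sums and counts.

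Alternatives were RLE, upper-quartile and no scaling factors, DESeq2 1.42.0, no filter, a 1 CPM filter (in 3 or more libraries), edgeR not robust, limma-voom (limma 3.58.1) plain or weighted by sample quality, fits lacking 1 library, a block for replicate number or for mouse-number run, Xist as a covariate, and loess offsets (span 0.3) for GC content and transcript length from GENCODE M21, which gave values for 99.3% of the genes tested.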

Additional observations from a re-analysis of the deposited data

Results flagged for a closer look

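Pfkl in the 4 cKO libraries was at 184, 198 and 199 CPM in replicates 1 to 3 and at 332 CPM in replicate 4, so that the gap of replicate 4 to its nearest neighbour was 0.901 of the range of the 4, above Dixon's 95% critical value. The log2 ratio of Pfkl to Pfkp was 6.87, 6.80 and 6.70 in cKO replicates 1 to 3 and 7.72 in cKO replicate 4, a gap of 0.835 of the range. Over the 7 libraries Pfkp had only 19 to 58 counts in a library. These were the 2 of 25 groups of 4 libraries tested that passed this value, and chance alone passes about 1 in 20. The 2 are not independent, since both use the Pfkl count of cKO replicate 4. Most enzymes also varied together, so the 25 are not separate tests.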

How the results depend on the processing

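All 10 enzymes kept the sign of their log2 fold change in all 14 alternatives and in all 7 fits without 1 library, but how many passed depended on the settings. In the fit reported 43 genes passed the threshold, 0.359% of all genes tested. With DESeq2 524 passed (4.37%), with limma-voom and sample quality weights 959 (8%) and with no filter 89 (0.543%). With the mouse-number run as a block 170 passed (1.42%), with Xist as a covariate 1056 (8.81%) and with GC content and length offsets 729 (6.12%). Of the 10 enzymes 4, 4, 1, 2, 8 and 5 passed in these alternatives, in the same order. The deviations of same-numbered mice correlated at 0.387, 0.0691 and −0.173 for numbers 1 to 3. So few values cannot decide whether the numbers pair the mice. With the replicate number as a block 288 genes (2.4% of all genes tested) and 1 enzyme passed. With that block and the GC content and length offsets 861 genes (7.23%) and 7 enzymes passed. Under the block alone the median of the enzymes was 0.36. Only cKO has a replicate 4, so under the block that library adds nothing to the difference between groups. Without that library and with no block the median was 0.37. In the fits that each left out 1 library, from 4 to 142 genes passed, 0.0331% to 1.19% of those tested, and from 0 to 4 enzymes. The genes were 142 when cKO replicate 1 was left out, 44 for cKO replicate 4, 10 for WT replicate 1 and 4 for WT replicate 2. They were 6 each for cKO replicates 2 and 3 and WT replicate 3. The list counts that follow stand beside the shares of all genes tested given above for the same settings. Of the 16 enolases and other isoenzymes 1 passed with sample quality weights and 1 with Xist as a covariate. Of the 9 transporters 1 passed with DESeq2, with sample quality weights, with the replicate block, with Xist, with the offsets, and with the offsets and block. Of the 20 flux regulators 3 passed with DESeq2, 4 with quality weights, 4 with Xist, 5 with the offsets and 4 with the offsets and block. Of the 11 pentose phosphate genes 0 passed with upper-quartile factors (0.392% of all genes tested), no scaling factors (0.434%) or the 1 CPM filter (0.438%). With quality weights 2 passed, with Xist 5, with the offsets 5, with the offsets and block 4, and without 1 library from 0 to 1. Of the 12 gluconeogenesis and glycogen genes 3 passed with DESeq2, 3 with quality weights and 2 with the replicate block. With Xist 3 passed, with the offsets 3, and with the offsets and block 3. Of the 20 hypoxia genes 2 passed with DESeq2, 2 with quality weights and 1 with the replicate block. With Xist 4 passed, with the offsets 3, and with the offsets and block 4. The difference in the log2 ratio of Pfkl to Pfkp, −0.38, reversed to 0.20 without WT replicate 3. Over the fits without 1 library it ranged from −0.81 to 0.20, and Pfkp had as few as 19 counts in a library. The other 5 ratios kept their sign. The motif ACGTG was found for 3 enzymes on the given strand alone. The cause of these shifts was not tested. Gapdh passed in 8 of the 14 alternatives, with log2 fold changes from 0.57 to 0.82. The lowest count of any of the 10 enzymes in a library was 432, for Pgam1.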
